A study of Mus musculus with 4 samples.

Results

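The genes described here encode the nucleolar machinery that builds ribosomes, measured in tumours of the mouse melanoma line iNRAS-475 after doxycycline was withdrawn. They were 38 genes listed by symbol under a rule that uses no expression value, but chosen with earlier results of these data known. On the array 37 of them could be read among the 13525 genes tested. The exception, Mrto4, shares its probe set in the annotation with related pseudogenes and is not given a value. Ribosomal RNA is transcribed in the nucleolus by RNA polymerase I, modified by small nucleolar ribonucleoproteins (snoRNPs), cut, folded and packed with ribosomal proteins into a small and a large subunit. Many genes of this machinery are known targets of the transcription factor MYC, and RAS and ERK signalling is known to act on rRNA transcription in growing cells.

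iNRAS-475 is a single mouse melanoma cell line, known as one in which doxycycline keeps on NRAS, a small GTPase upstream of the RAF, MEK and ERK kinases. Cells were injected into the skin of nude mice, hosts that lack a thymus but keep macrophages and other innate cells, and all hosts drank doxycycline at 2 mg/ml for 6 weeks, until tumours measured 200 to 500 mm3. The control tumour came from a host still on doxycycline, and the others were taken 24, 48 and 72 h after the drug was withdrawn. A piece of tumour free of skin was used, and each condition had 1 array, so the spread between animals is unknown and animal and condition cannot be told apart. Values are intensities on the deposited linear scale, whose medians over all probe sets were 33.3 to 34.0 on the 4 arrays. Differences are in log2(intensity + 32), off minus on doxycycline, a scale that understates the change of dim genes. The 3 differences of a gene share the control array, and an intensity cannot be compared between genes because each probe set has its own response. In these bulk samples, fewer cells of a type and less RNA per cell cannot be told apart.

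The melanocyte lineage was represented by some of its markers. The 7 markers summed to 3994 in the control and 3807, 4965 and 4248 at 24, 48 and 72 h, almost all of it Sox10, and 4 of them passed the level filter. Sox10, a neural crest transcription factor, read 3771 on doxycycline and 3613, 4681 and 3844 at 24, 48 and 72 h, whereas the pigment cell genes Mlana, Tyr and Tyrp1 stayed at or below 25.2 on every array. Over the 4 arrays in order of time Pmel, a melanosome gene, read 73.1, 49.8, 103 and 199.7, Mitf, a melanocyte transcription factor, read 50.3, 56.5, 93.1 and 115, and Dct, a pigment enzyme gene, read 34.7, 25.8, 27.0 and 25.7. Markers of host tissue moved with time. Summed intensity of 7 skeletal muscle markers was 255 in the control and 543, 232 and 4363 at 24, 48 and 72 h. In the same order 7 fibroblast and matrix markers summed to 16621, 17221, 35999 and 66702, 8 macrophage markers to 3597, 6193, 5620 and 11119, and 5 adipocyte markers to 568, 263, 839 and 3712. Of the fibroblast and matrix markers 6 were above the control at 48 and 72 h. The other, Pdgfra, read 404, 441, 261 and 262 over the 4 arrays. The 7 endothelial markers summed to 483, 448, 461 and 816, 5 lymphoid markers to 253, 252, 256 and 229.7, and 7 keratinocyte markers to 263, 247, 262 and 265. The part of host tissue in the differences below was not tested.

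At 48 and 72 h after withdrawal nearly all of the nucleolar genes were below the control, and at 24 h they were not. At 24 h, 19 of 37 were below the control and 17 above it, with a median difference of -0.003, against a median of 0.00 for all genes tested, of which 43.0% were below and 49.0% above. At 48 h, 35 of 37 were below and none above, where 45.4% of all genes tested were below and 45.3% above. At 72 h, 35 of 37 were again below and none above, against 43.7% and 46.8% of all genes. These were 35 genes below at both times, where 34.3% of all genes were, and 19 were below at all 3 times, where 23.9% were. The medians were -0.34 at 48 h and -0.33 at 72 h, against 0.00 for all genes at both times. The remaining pair, Rcl1 and Noc2l, had the same value at 48 and 72 h as in the control. After quantile normalization all 37 were below at 48 and 72 h, where 58.0% and 57.7% of all genes were.

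Most of these differences were small. At least 0.25 lower were 24 of the 37 genes at 48 h and again 24 at 72 h, where all genes tested gave 13.2% and 13.1%. At least 0.5 lower, or 1.41-fold in intensity + 32, were 0 genes at 24 h, 7 at 48 h and 9 at 72 h, where all genes gave 0.924%, 4.75% and 5.52%. Fbl, Mybbp1a, Bysl and Wdr74 were at least 0.5 lower at both later times, where 3.47% of all genes were. At least 1 lower on this scale was Fbl alone, at 72 h, where 0.0665%, 1.04% and 1.63% of all genes were at the 3 times. In intensity itself Nop56 and Rrp12 stood at 45.5% and 49.4% of the control at 48 h, and Ddx21 at 48.4% at 72 h. Of the 25 genes with a mean intensity of 100 or more, 23 were below the control at 48 h and 23 at 72 h, where 47.1% and 44.0% of all genes that bright were, and all 12 dimmer ones were. None of the 37 was higher than the control by 0.25 or more at 48 or 72 h, whereas 13.7% and 18.1% of all genes tested were. At 24 h, 3 were at least 0.25 lower and 2 at least 0.25 higher, near the shares of all genes, 6.85% and 11.5%.

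**Figure D1:**
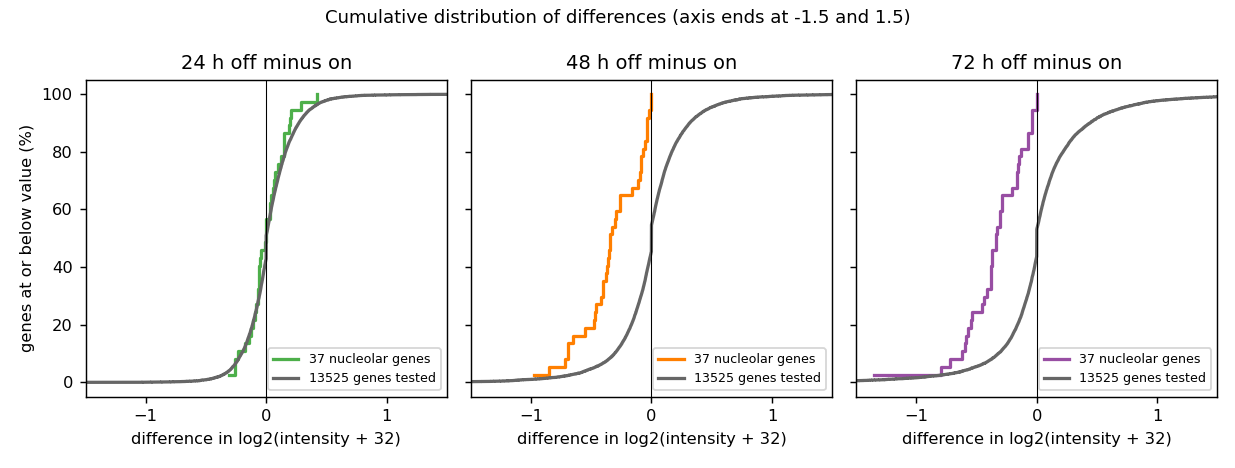
Cumulative share of genes (%, vertical axis) at or below each difference in log2(intensity + 32), off minus on doxycycline (horizontal axis), for the 37 nucleolar genes (coloured steps) and all 13525 genes tested (grey). The curves lie close together at 24 h, and at 48 and 72 h that of the nucleolar genes lies left of that of all genes and reaches its top at 0, since none was above the control.

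The comparison of 72 h with 24 h, which leaves the control array out, had the same direction. At 72 h, 34 of 37 genes were lower than at 24 h and 1, Nop14, was higher, by 0.02, with a median of -0.28, where 40.8% of all genes tested were lower and 46.5% higher, with a median of 0.00. At least 0.5 lower were 8 genes, where all genes gave 6.71%, and Fbl and Ncl were at least 1 lower on the log2(intensity + 32) scale, where 1.85% of all genes were. The step lay between 24 and 48 h, when 33 of 37 genes were lower at the later time and the median was -0.31, where 44.3% of all genes were lower. From 48 to 72 h the median was 0.00. By then 18 genes were lower and 14 higher than at 48 h, where all genes gave 39.4% and 47.1%.

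A straight line was fitted over the 4 arrays against hours off doxycycline, with limma across all genes. The slope was below 0 for 36 of 37 nucleolar genes, where 47.5% of all genes had such a slope, and its median was -0.13 per 24 h. None of the 37 genes passed at a limma adjusted p under 0.05, and none of all genes did (0.00%). The lowest adjusted p was 0.242 among the nucleolar genes, for Bop1, and 0.240 among all genes. At an unadjusted p under 0.05, limma gave 12 of the 37 genes, where it gave 15.5% of all genes. The fit had 2 residual degrees of freedom.

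**Figure D2:**
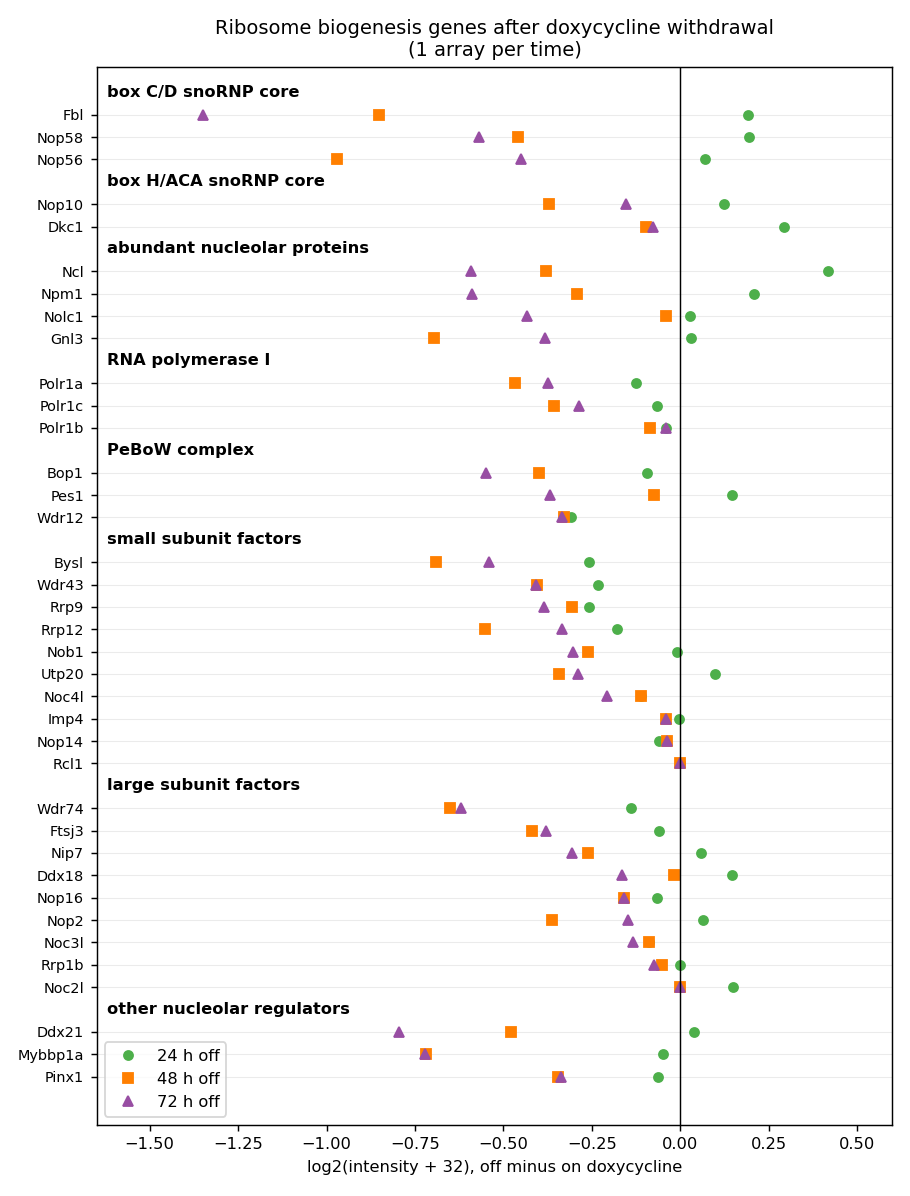
Difference in log2(intensity + 32), off minus on doxycycline (horizontal axis), for each of the 37 nucleolar genes (rows, grouped by role and ordered by the 72 h value). Circles are 24 h, squares 48 h and triangles 72 h, with 1 array per time. At 48 and 72 h no symbol lies right of 0, and the triangle furthest left is that of Fbl, at -1.35.

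The box C/D snoRNP is the particle that methylates the ribose of rRNA. On the brightest probe sets its core held the gene with the lowest difference at 48 h, Nop56, and at 72 h, Fbl. Fbl, which encodes its methyltransferase fibrillarin, had an intensity of 599 in the control and 689, 318 and 216 at 24, 48 and 72 h. At 72 h it stood at 36.0% of the control, a difference of -1.35, and only 0.821% of all genes tested lay lower. The values at 48 and 72 h were both under the pair of earlier ones. Nop56, a scaffold of the same particle, read 287, 303, 131 and 202 over the 4 arrays in order of time, with differences of 0.07, -0.97 and -0.45. It was lowest at 48 h and higher by 0.52 at 72 h than at 48 h, the greatest such step of the 37 genes. Nop58, the paralogous scaffold, read 97.5, 116, 62.3 and 55.3, with differences of 0.19, -0.46 and -0.57. Each of these was a little higher than the control at 24 h and lower than it later. Another Nop56 probe set was below the control already at 24 h, at -0.15, and gave -0.72 and -0.51 at 48 and 72 h. The size of the Nop56 step from 48 to 72 h and its rank at 48 h thus depend on the probe set.

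The box H/ACA particle turns uridine of rRNA into pseudouridine. Its genes among the 37, Dkc1 and Nop10, differed less at 48 and 72 h. Nhp2 and Gar1, other genes of the particle given below, were at -0.92 and -0.67 at 48 h. Dkc1, which encodes the pseudouridine synthase dyskerin, read 55.8, 75.5, 50.0 and 51.3, with differences of 0.29, -0.10 and -0.08. The 24 h array was the one that stood apart. Nop10, a small structural subunit, read 702, 768, 535 and 628, with differences of 0.12, -0.37 and -0.15. It was lowest at 48 h, as Nop56 was.

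On their brightest probe sets the abundant nucleolar proteins were all slightly above the control at 24 h and below it at 48 and 72 h. Ncl, which encodes nucleolin, an RNA-binding protein of early rRNA processing, read 1524.5, 2049, 1164 and 999.98. Its difference at 24 h, 0.42, was the highest of the 37 genes, and those at 48 and 72 h were -0.38 and -0.59. Npm1, which encodes the nucleolar chaperone nucleophosmin, read 1835, 2128, 1495 and 1211, with differences of 0.21, -0.29 and -0.59. From 24 to 72 h Ncl and Npm1 differed by -1.01 and -0.80. Nolc1, which encodes a chaperone of snoRNPs that links the nucleolus and Cajal bodies, read 109, 112, 105 and 72.6. It was close to the control until 48 h, with a difference of -0.04, and lower at 72 h, at -0.43. Another Nolc1 probe set was lowest at 48 h, at -0.14, -0.32 and -0.21, and a further one gave -0.04, -0.03 and -0.20. Gnl3, which encodes nucleostemin, a GTP-binding protein of proliferating cells, read 298, 305, 172 and 221, with differences of 0.03, -0.70 and -0.38. Its lowest array was that of 48 h.

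Subunits of RNA polymerase I, the enzyme that transcribes rRNA, had small differences. Polr1a, the largest subunit, read 105, 93.8, 67.1 and 73.7 over the 4 arrays in order of time, with differences of -0.12, -0.47 and -0.37. Polr1b, the next largest, read 43.7, 41.6, 39.3 and 41.6, a range close to flat. Polr1c, a subunit shared with RNA polymerase III, read 161, 152, 119 and 126, with differences of -0.06, -0.36 and -0.29. On these probe sets all 3 were lowest at 48 h. Another Polr1a probe set was nearly flat, at -0.00, -0.04 and -0.00, and a dimmer one gave -0.08, -0.08 and -0.24. Another Polr1c probe set gave 0.33, -0.03 and -0.15, so size and timing depend on the probe set.

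The PeBoW complex is made of Pes1, Bop1 and Wdr12 and is needed for the large subunit. On the brightest probe sets each of its genes was lower than the control at 72 h. Bop1 read 363, 338, 268 and 238, with differences of -0.09, -0.40 and -0.55. Its limma slope, -0.20 per 24 h with a standard error of 0.03, had the lowest p of the 37 genes and an adjusted p of 0.242. Another, dimmer Bop1 probe set gave only -0.10, -0.07 and -0.07. Pes1 read 167, 189, 157 and 122, with differences of 0.15, -0.07 and -0.37. Wdr12 departed from most of the others, since it was already as low at 24 h. It read 47.6, 32.2, 31.4 and 31.2, with differences of -0.31, -0.33 and -0.33. Its mean intensity, 35.6, was the lowest of the 37 genes. Dimmer Wdr12 probe sets, under the level filter, did not fall, at 0.17, 0.09 and 0.08, and at 0.00, 0.05 and 0.00.

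**Figure D3:**
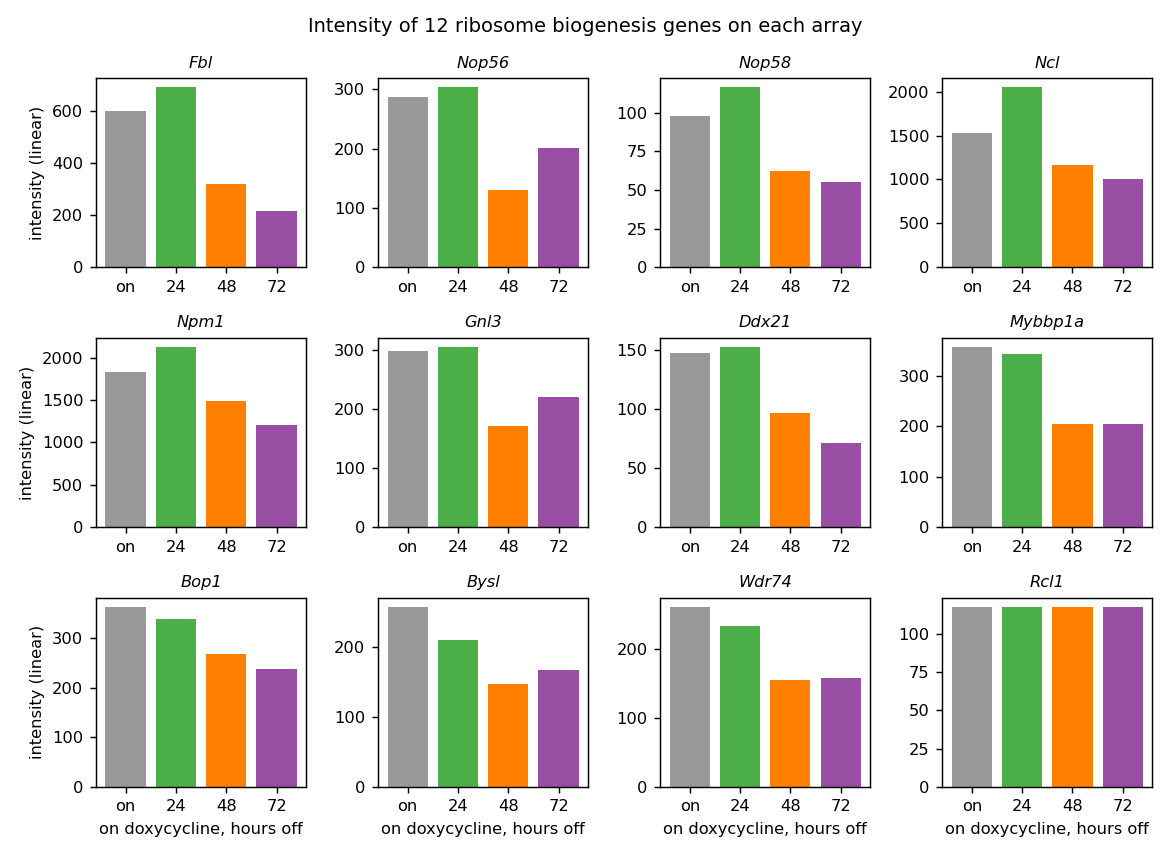
Intensity (linear, vertical axis from 0) of 12 of the nucleolar genes on the control array and 24, 48 and 72 h off doxycycline, 1 bar per array. Fbl, Nop58, Ncl, Npm1, Ddx21 and Bop1 are lowest at 72 h, Nop56, Gnl3, Bysl and Wdr74 at 48 h, Mybbp1a is nearly equal at those times (204 and 203), and Rcl1 is at 118 on every array.

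Factors of the small subunit were lower as a group, with differences that ranged from -0.69 to 0.00 at 48 h and from -0.54 to 0.00 at 72 h. Of 10 genes, 8, 9 and 9 were below the control at 24, 48 and 72 h, with medians of -0.09, -0.28 and -0.30. Bysl, which encodes bystin, a factor of late small subunit precursors, read 257, 209, 147 and 166, with differences of -0.26, -0.69 and -0.54. Wdr43, a component of the small subunit processome that is also needed for rRNA transcription, read 414, 347, 304 and 304, with differences of -0.23, -0.41 and -0.41. Rrp9, a protein specific to the U3 snoRNP, read 241, 196, 189 and 177, with differences of -0.26, -0.31 and -0.38. For these 3 genes the 24 h array was already below the control. Rcl1, known in yeast as a factor of rRNA cleavage, read 118 on all 4 arrays.

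The other small subunit factors lay between these. Rrp12, a factor known in yeast for export of the subunit, read 54.3, 44.2, 26.8 and 36.4, with differences of -0.18, -0.55 and -0.33. Utp20, a large scaffold protein, read 184, 199, 138 and 145, with differences of 0.10, -0.34 and -0.29, and Nob1, the endonuclease that makes the end of 18S rRNA, had -0.01, -0.26 and -0.30. Noc4l and Nop14, whose yeast counterparts bind each other, had -0.11, -0.11 and -0.21, and -0.06, -0.04 and -0.04. Imp4, a U3 snoRNP protein, had -0.00, -0.04 and -0.04. Nop14, Imp4 and Rcl1 thus stayed within 0.06 of the control throughout.

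Factors of the large subunit had medians nearer to 0 than those of the small subunit. Of 9 measured genes, 4, 8 and 8 were below the control at 24, 48 and 72 h, with medians of 0.00, -0.16 and -0.16. Wdr74, a nucleolar WD-repeat protein, was the lowest of them and read 261, 234, 155 and 159, with differences of -0.14, -0.65 and -0.62. Noc3l read 177, 165, 165 and 159, with differences of -0.09, -0.09 and -0.13. Noc2l, whose yeast counterpart pairs with that of Noc3l, read 132, 150.2, 132 and 132, and so equalled the control at 48 and 72 h. Another Noc2l probe set gave -0.08, -0.62 and -0.47, so the value of this gene depends on the probe set.

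The remaining large subunit factors had smaller differences than Wdr74. Ftsj3, an rRNA methyltransferase, read 78.9, 74.3, 50.9 and 53.3, with differences of -0.06, -0.42 and -0.38, and Nop2, which methylates cytosine in 28S rRNA, had 0.06, -0.36 and -0.15. Nip7 had 0.06, -0.26 and -0.31. The RNA helicase gene Ddx18 had 0.15, -0.02 and -0.16. Nop16 had -0.07, -0.16 and -0.16, and Rrp1b, which encodes a nucleolar partner of protein phosphatase 1, had 0.00, -0.05 and -0.07.

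Among the remaining nucleolar regulators 2 were among the lowest genes. Ddx21, an RNA helicase that binds both rRNA and RNA polymerase II genes, read 148, 153, 96.9 and 71.5, with differences of 0.04, -0.48 and -0.80. Mybbp1a, a nucleolar protein that restrains RNA polymerase I, read 356, 343, 204 and 203, with differences of -0.05, -0.72 and -0.72. Pinx1, a nucleolar inhibitor of telomerase, read 95.2, 89.9, 68.2 and 68.6, with differences of -0.06, -0.34 and -0.34. All 3 were near the control at 24 h and well under it at both later times.

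The genes differed in which of the later arrays was lowest. The 72 h array alone was the lowest for 18 of the 37 genes and the 48 h array alone for 14, where 21.7% and 19.5% of all genes tested had these patterns, and 1 gene was lowest at 24 h. From 48 to 72 h, on their brightest probe sets, Fbl, Nolc1, Ddx21, Npm1 and Pes1 were lower by 0.25 or more. Their differences were -0.50, -0.39, -0.32, -0.30 and -0.30. On theirs Nop56 and Gnl3 were higher over the same step, by 0.52 and 0.31. The steps of Nolc1 and Nop56 depend on the probe set, as given above. Genes at least 0.25 lower and higher over this step made up 6.37% and 11.2% of all genes tested.

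Other probe sets of the same genes gave smaller differences on the whole. Of the other probe sets, 26, from 20 genes, passed the filter on level. At 24, 48 and 72 h, 14, 23 and 24 of them were below the control, with medians of -0.01, -0.16 and -0.20. The second Fbl probe set gave -0.82 and -1.35 at 48 and 72 h, and that of Npm1 -0.34 and -0.53, close to the values above. The Ncl probe set next in intensity gave -0.36 and -0.81, but 2 dim ones, 1 of them under the level filter, gave 0.04 and 0.03 at 72 h. Another Bysl probe set gave -0.16 and -0.02, against -0.69 and -0.54 for the brightest. Those of Ddx21 and Mybbp1a gave -0.51 and -0.42 at 72 h, so the direction held and the size did not.

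**Figure D4:**
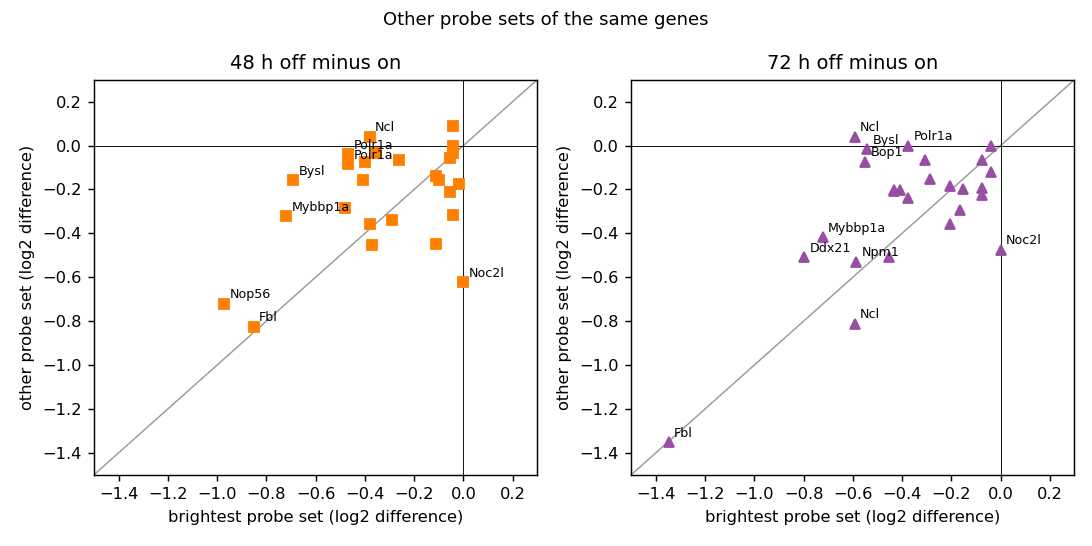
Difference in log2(intensity + 32), off minus on doxycycline, of other probe sets (vertical axis) against the brightest probe set of the same gene (horizontal axis) at 48 h (left) and 72 h (right), for the 26 other probe sets that passed the level filter. The grey line marks equal values. The Fbl point lies on it, and one Ncl point and those of Bysl and Bop1 lie well above it.

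Many intensities were exactly equal between arrays, as Rcl1 shows. Of the 37 genes 8 had a value shared by at least 2 arrays, against 36.8% of all genes tested. Among the 29 genes with no such value, 13 were below the control at 24 h and 29 at both 48 and 72 h, with medians of 0.03, -0.37 and -0.38. Of all 8544 genes with no such value, 50.0% and 47.1% were below at 48 and 72 h. Their medians at 24, 48 and 72 h were 0.03, 0.00 and 0.02. Equal values hide small differences, and the sources used here do not say how they arose.

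Promoters of the nucleolar genes were searched for CACGTG, the canonical E-box, which reads the same on both strands and is the best known binding sequence of MYC with its partner MAX. RefSeq promoters on GRCm38.p6, from 250 bases before to 50 after the start of the gene, were at hand for 33 of the 38 genes, and Fbl, Npm1, Bop1, Rrp12 and Pinx1 were without one. The motif was in 6 of the 33, or 18.2%, against 11.04% of the tested genes with a promoter and 8.09% of all genes in that table. Medians at 72 h were -0.33 for the 6 genes with the motif and -0.30 for 26 measured genes with a promoter and no motif, and at 48 h they were -0.35 and -0.28. The letters are a match and not a measured site. The 6 matches, each with up to 12 bases on either side, are shown so that their flanks can be compared. They are written 5′ to 3′ on the strand of the gene, with the motif in capitals, in order of the 72 h difference.
Mybbp1a: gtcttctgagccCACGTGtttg
Wdr43: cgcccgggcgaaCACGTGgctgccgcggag
Pes1: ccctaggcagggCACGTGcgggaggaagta
Utp20: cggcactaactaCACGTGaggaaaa
Nop2: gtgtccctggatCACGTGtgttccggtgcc
Imp4: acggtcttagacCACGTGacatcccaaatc
These lie at chr11:72441355-72441376 (plus strand, Mybbp1a), chr17:71616220-71616249 (plus, Wdr43), chr11:3963965-3963994 (plus, Pes1), chr10:88826765-88826789 (minus, Utp20), chr6:125131811-125131840 (plus, Nop2) and chr1:34439696-34439725 (plus, Imp4). In Mybbp1a, Wdr43, Pes1 and Utp20 the motif began 41, 18, 3 and 38 bases into the transcribed part. In Nop2 and Imp4 it began 60 and 121 bases before the start, within these upstream stretches of 250 bases, at chr6:125131633-125131882 and chr1:34439579-34439828 on the plus strand.
Nop2: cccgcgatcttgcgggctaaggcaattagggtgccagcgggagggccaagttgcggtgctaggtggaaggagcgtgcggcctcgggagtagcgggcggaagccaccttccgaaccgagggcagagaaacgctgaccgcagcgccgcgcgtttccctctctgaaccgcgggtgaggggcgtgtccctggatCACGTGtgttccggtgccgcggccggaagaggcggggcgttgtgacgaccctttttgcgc
Imp4: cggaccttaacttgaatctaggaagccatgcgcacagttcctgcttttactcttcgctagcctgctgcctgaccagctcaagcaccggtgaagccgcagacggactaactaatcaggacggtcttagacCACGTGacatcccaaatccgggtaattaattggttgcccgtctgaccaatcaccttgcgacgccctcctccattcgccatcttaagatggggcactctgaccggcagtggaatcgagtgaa

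Myc itself was higher than the control at 24 h and lower at 48 and 72 h. Its probe set read 111, 146, 70.6 and 54.1, with differences of 0.32, -0.48 and -0.73. Its partner Max read 196, 302, 206 and 156, with differences of 0.55, 0.06 and -0.28. Mxd4, which encodes a repressor that competes with MYC for MAX, read 206, 177, 300.2 and 432, with differences of -0.19, 0.48 and 0.96. The 12 genes of the MYC network had medians of 0.01, 0.13 and 0.10, with 3 of them below the control at 48 h and 3 at 72 h.

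Further genes of ribosome biogenesis had smaller differences in the same direction. Together 119 such genes, none of them among the 37, had medians of 0.03, -0.13 and -0.15, with 39, 90 and 85 of them below the control. At least 0.5 lower were 16 at 48 h and 11 at 72 h. Both sets were put together with earlier results of these data known, so the lower medians of the 37 genes are a description.

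Of the further small subunit factors 30 of 40 were below the control at 48 h and 26 at 72 h, with medians of -0.19 and -0.15. Rrp7a was at -0.60 and -0.64, Ltv1, a factor of late precursors, at -0.64 and -0.54, and the deacetylase gene Sirt7 at 0.30 and 0.43. Of the further large subunit factors 32 of 42 were below the control at each of these times, with medians of -0.22 and -0.15. Nol12 was at -0.76 and -0.94, Eif6, which keeps the subunits apart, at -0.76 and -0.71, and the helicase gene Ddx55 at 0.42 and 0.28. For both groups the medians at 24 h were near 0, at 0.05 and 0.00.

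Further snoRNP and assembly genes had 9 of 10 below the control at 48 h and 8 at 72 h, with medians of -0.04 at 24 h and then -0.15 and -0.23. Nhp2, an H/ACA subunit not among the 37, read 528, 469, 264 and 258, with differences of -0.16, -0.92 and -0.95. Gar1, also an H/ACA subunit outside the 37, read 259, 225, 151 and 206, with differences of -0.18, -0.67 and -0.29. Dkc1 and Nop10, the H/ACA genes among the 37, were at -0.08 and -0.15 at 72 h. Ruvbl1, an ATPase that helps assemble snoRNPs, was at -0.91 and -0.63 at 48 and 72 h, and Naf1, an H/ACA assembly factor, at -0.01 and 0.28.

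Genes of the nuclear exosome and its partners, which trim rRNA, had 13 of 15 below the control at 48 h and 14 at 72 h, with medians of 0.05, -0.11 and -0.20. Exosc4 and Exosc1 were at -0.72 and -0.34 at 72 h, and the cofactor gene C1d was above the control, at 0.33. Further RNA polymerase I genes did not share the pattern. Of 12, 6 were below the control at 48 h and 5 at 72 h, with medians of 0.10, -0.01 and 0.02. Twistnb and Polr1d, which encode subunits, were at -0.38 and -0.25 at 72 h, and the subunit genes Cd3eap and Znrd1 at -0.07 and -0.14. Ttf1, which ends rRNA transcription, was at 0.37.

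**Figure D5:**
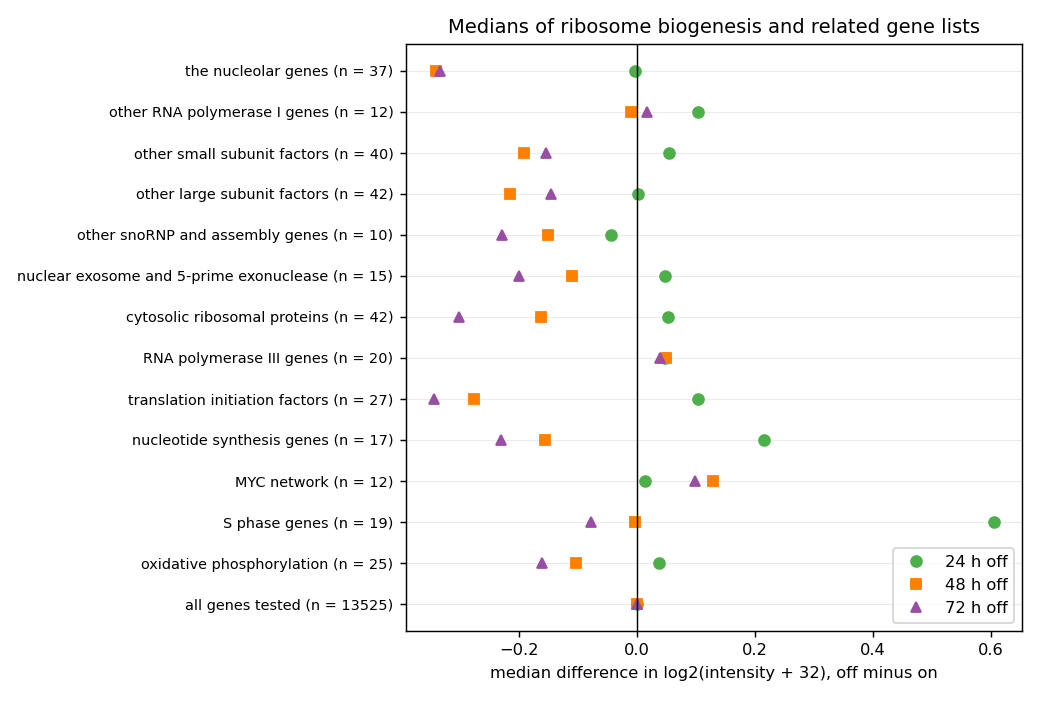
Median difference in log2(intensity + 32), off minus on doxycycline (horizontal axis), of the 37 nucleolar genes and of 12 other lists (rows, with the number of genes measured), beside all genes tested. Circles are 24 h, squares 48 h and triangles 72 h. The medians of the nucleolar genes at 48 and 72 h are -0.34 and -0.33, those of ribosomal proteins -0.16 and -0.30, and the 24 h median of S phase genes, 0.61, lies furthest right.

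Ribosomal proteins, which the nucleolar machinery packs onto rRNA, were also below the control at the later times, and for them 72 h was the lower. Of 79 genes listed, 42 had a probe set with a single symbol above the level filter. Of these 42, 12, 39 and 39 were below the control at 24, 48 and 72 h, with medians of 0.05, -0.16 and -0.30. Rps19 was at -0.29 and -0.68, Rpl8 at -0.53 and -0.61, and Rps28 at -0.02 and 0.04. At least 0.5 lower at 48 h were 7 of the 37 nucleolar genes, against 2 of the 42, and at 72 h 9 of the 37, against 9 of the 42. These counts were not tested against each other.

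S phase genes stood well above the control at 24 h, and oxidative phosphorylation genes were near it at 24 h and mostly below it later. No difference between lists was tested. The nucleolar genes had medians of -0.003, -0.34 and -0.33, against 0.61, -0.00 and -0.08 for S phase genes, of which 18 of 19 were above the control at 24 h. Mcm2, a subunit of the replicative helicase, was at 0.74, 0.00 and -0.47, Cdt1 at 0.72, -0.10 and -0.35, and Prim1 at 0.76, 0.28 and 0.27. Oxidative phosphorylation genes had medians of 0.04, -0.10 and -0.16. Of 25, 17 were below the control at 48 h and 21 at 72 h, among them Cox5a at -0.51 and Atp5b at -0.50 at 72 h, while Cox6c was at 0.15. Genes of RNA polymerase III, which transcribes 5S rRNA and tRNA, had medians of 0.05, 0.05 and 0.04, with 6 of 20 below the control at 48 h and again at 72 h. Polr3e and Polr3k were at -0.30 and -0.30 at 72 h, and Gtf3c2 at 0.37.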

How the data were processed

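RNA was measured on an Affymetrix mouse array in 4 tumours, 1 per condition, from biotin-labelled cRNA per the labels' protocols. The deposited table holds 1 linear intensity per probe set and array, made by the authors. MAS5 and RMA were used in some step, per the submitters' processing notes, which give neither role nor version, and the scaling between arrays is unknown here. No detection calls were used. Arrays have no depth, so their number, 4, limits precision.

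Of 45037 probe sets, 34945 had 1 symbol in the platform annotation, 932 had several and 9160 were not listed there. Only the first kind was used. The brightest probe set stood for each gene, and genes were kept if their mean level reached the 40th percentile over probe sets (an intensity of about 24.8), 13525 in all. All 37 genes with a single-symbol probe set passed. From the intensities log2(intensity + 32) was computed with no further normalization. Differences between arrays carry no p-value.

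The line over hours was fitted with limma 3.58.1 in R 4.3.3 (eBayes with a trend, Benjamini-Hochberg adjustment over all genes). It was also run on simulated data with straight slopes and the same noise size for every gene. There it called 100 of 100 genes with a slope of -0.5 per 24 h and 13 of 13325 with none. That run checks the code and does not show how the fit performs on these arrays. Python 3.11.15, pandas 2.3.3 and NumPy 2.4.6 did the rest. Promoter sequences are RefSeq's.

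The genes and lists were chosen with earlier results of these data known. All 37 genes are named, with values on each array for groups of up to 4 and, in larger groups, for the 3 brightest, the lowest and the highest at 72 h. Outside them the rule named Myc and, per list, the 2 lowest genes and the highest at 72 h, of which those of the cell markers are mostly given as sums. Gar1, Cd3eap and Znrd1 are given in addition. Alternatives were other pseudocounts, scaling, level filters, probe set choices and, for the fit, each array left out.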

Additional observations from a re-analysis of the deposited data

How the results depend on the processing

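The direction at 48 and 72 h held under every alternative tried: 35 to 37 of 37 genes were below the control, 31 of 33 with the stricter level filter, and 32 of 34 without probe sets ending in _x_at, _s_at or _a_at. Sizes depended on the pseudocount. With 4 times 32 the medians were -0.22 at 48 h, -0.19 at 72 h and -0.18 from 24 to 72 h, and 4 genes at 48 h and 4 at 72 h were at least 0.5 lower. With 8, 11 genes at 48 h were at least 0.5 lower and 1 was at least 1 lower. With none, 1 gene at 24 h, 12 at 48 h and 15 at 72 h were at least 0.5 lower, and 2 at 48 h and 2 at 72 h were at least 1 lower. These shifts follow from the scale itself, since a pseudocount shrinks dim genes most. All-gene shares at these pseudocounts are not given here. Quantile normalization put the 24 h median at -0.066, where that of all genes moved from 0.00 to -0.027. It put 26 genes below the control at that time, and the cause was not tested. The limma fit called 0 of the 37 genes under every alternative, also with each array left out. Without the 72 h array limma gave 4 of the 37 genes an unadjusted p under 0.05, against 1046 of all 13525 genes. Without the control these counts were 6 and 1701, without 24 h 9 and 1988, and without 48 h 9 and 1443. The other 119 recomputed values moved less, counts by up to 1.5 times and medians by under 0.05 or by up to 1.5 times. Among these the median at 48 h lay between -0.39 and -0.26, that at 72 h between -0.44 and -0.28, and that from 24 to 72 h between -0.35 and -0.23, the high ends with the mean over a gene's probe sets and the low ends with no pseudocount. No paired analysis was possible because each condition has 1 array. There is no detection call here, so how far dim genes such as Wdr12, Rrp12, Polr1b and Nop16 stand above background is unknown.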

Other observations

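Genes of translation initiation and nucleotide synthesis were also mostly below the control at 48 and 72 h. Translation initiation factors had median differences of 0.10, then -0.28 and -0.34, over the 3 times off doxycycline, with 25 of 27 below the control at each of the later times, when 45.4% and 43.7% of all genes tested were. Eif2s2, a subunit of the factor that carries the initiator tRNA, read 1239 in the control and 1211, 571 and 540.0 at 24, 48 and 72 h, with a difference of -1.15 at 72 h. Eif4e, which binds the mRNA cap, read 483, 438, 277 and 235, and Eif2b4 was at 0.08 at 72 h.

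Nucleotide synthesis genes had medians of 0.21, -0.16 and -0.23, with 13 of 17 below the control at 48 h and 15 at 72 h. Nme1, a nucleoside diphosphate kinase, read 648, 794, 285 and 284, with differences of 0.28, -1.10 and -1.11. The purine enzyme gene Atic was at -0.71 at 72 h, and Prps2, which makes the ribose phosphate donor, was above the control, at 0.38.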
